A study of Mus musculus with 26 samples.

Results

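Mast cells grown in culture from wild-type mouse bone marrow (bone marrow-derived mast cells, BMMCs) were compared with the wild-type granulocyte-macrophage progenitors (GMPs) of the marrow, the population from which such cultures were started. The libraries were chosen by their labels, as the 5 with genotype WT and cell type BMMC.P3 and the 4 with genotype WT and cell type GMP, which are 9 of the 26 libraries of the series. The labels do not explain P3. The 17 libraries outside the comparison hold wild-type common myeloid progenitors (CMPs) and Prss57-/- GMPs, CMPs and BMMCs. By the study's methods, GMPs were sorted by flow cytometry from lineage-depleted marrow, and BMMCs were grown from sorted GMPs in medium with interleukin-3 and stem cell factor. All 4 GMP libraries are labelled as coming from female mice and one sequencing run, and all 5 BMMC libraries as coming from males and from a second run. Cell type, culture, sex and run therefore cannot be told apart here, and the text keeps to autosomal genes and to differences of at least 4-fold. The study describes the libraries of each group as biological replicates, while the labels do not say which came from separate mice or cultures.

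GMPs are dividing progenitors that give rise to neutrophils and monocytes, and they already make the proteins of the azurophil (primary) granules of neutrophils, such as myeloperoxidase and the serine proteases elastase, proteinase 3, cathepsin G and NSP4, the product of Prss57. Mast cells live in tissues, depend on the stem cell factor receptor KIT, bind IgE through the receptor FcεRI, and store tryptases, chymases, carboxypeptidase A3 and histamine in granules on the heparin chains of serglycin. Many of these granule proteases of neutrophils and mast cells are related and are encoded side by side in clusters on several chromosomes.

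Levels are given as nRPKM, the read counts that the authors scaled by gene length and by a size factor for each library. A difference is given as the log2 fold change of BMMCs over GMPs, positive where BMMCs were higher, with an approximate standard error (SE). This SE is the absolute log2 fold change divided by the square root of the F statistic of the test. It is least reliable where one group held few reads. Values written with ± are means with the SD over the 4 GMP or the 5 BMMC libraries, and levels without ± that are not given by library are means over the same libraries. A gene was called where the quasi-likelihood test of edgeR gave it a Benjamini-Hochberg adjusted p under 0.01 among the 14754 genes tested and its fold change was at least 4. The GMP libraries held 42906128 to 51497962 reads on genes and the BMMC libraries 21322238 to 26457903. Where all libraries of one group held 0 reads of a gene, the fold is a lower bound against a floor of 3 reads over that group, and such bounds cover counting error only. The same limit holds for the Poisson intervals given for ratios of genes with few reads in one group.

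The bases before the start of 5 genes are shown, 2 pairs that share a cluster and differed in opposite directions, and Cpa3, a main protease of BMMCs. Cpa3, which encodes carboxypeptidase A3, Cma1, the chymase, and Ms4a2, the β chain of FcεRI, were higher in BMMCs, whereas Ctsg, which lies in the same cluster as Cma1, and Ms4a3, the gene next to Ms4a2, were lower. The 250 bases before each RefSeq start (GRCm38.p6) are written 5′ to 3′ on the strand of the gene, all 5 being on the minus strand. Capitals mark the word AGATAA, also with T as its first letter, G as its last letter or both, on either strand, which are letters that GATA factors such as GATA2 recognise.
Cpa3, chr3:20242182-20242431: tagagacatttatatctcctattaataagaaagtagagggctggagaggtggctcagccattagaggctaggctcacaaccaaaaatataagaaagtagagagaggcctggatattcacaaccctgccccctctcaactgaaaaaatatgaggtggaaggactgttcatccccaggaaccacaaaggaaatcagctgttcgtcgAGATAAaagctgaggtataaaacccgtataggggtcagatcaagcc
Cma1, chr14:55944676-55944925: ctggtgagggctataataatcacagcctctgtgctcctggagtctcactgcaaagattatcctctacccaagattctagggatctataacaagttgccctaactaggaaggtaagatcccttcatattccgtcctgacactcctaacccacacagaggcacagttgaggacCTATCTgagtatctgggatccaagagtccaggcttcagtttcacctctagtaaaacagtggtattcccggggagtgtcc
Ms4a2, chr19:11623720-11623969: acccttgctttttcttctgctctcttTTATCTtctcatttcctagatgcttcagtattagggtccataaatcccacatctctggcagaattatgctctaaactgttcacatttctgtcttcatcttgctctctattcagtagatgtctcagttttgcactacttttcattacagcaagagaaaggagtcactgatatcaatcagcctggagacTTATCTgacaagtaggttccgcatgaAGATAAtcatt
Ctsg, chr14:56102575-56102824: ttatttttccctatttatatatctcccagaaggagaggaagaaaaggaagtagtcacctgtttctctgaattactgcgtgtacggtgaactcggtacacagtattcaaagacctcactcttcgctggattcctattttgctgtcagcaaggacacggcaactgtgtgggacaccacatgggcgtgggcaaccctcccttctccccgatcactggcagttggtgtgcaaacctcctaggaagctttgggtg
Ms4a3, chr19:11640852-11641101: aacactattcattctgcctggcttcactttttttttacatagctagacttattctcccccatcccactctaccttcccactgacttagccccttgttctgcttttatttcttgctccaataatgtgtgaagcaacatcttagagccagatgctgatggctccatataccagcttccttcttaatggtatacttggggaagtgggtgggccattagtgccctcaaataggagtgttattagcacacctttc
The Cpa3 window held 1 such word, which began 46 bases before the start, the Cma1 window 1, at 79 bases, and the Ms4a2 window 3, at 224, 37 and 11 bases. The Ctsg and Ms4a3 windows held 0. Of 3 more windows of genes called higher, those of Tph1 and Fcer1a held 1 each and that of Gata2 held 0. Such a word was present in 17.5% of the 12565 promoter windows of autosomal genes tested, in 20.5% of the 2161 windows of genes called higher in BMMCs and in 18.6% of the 1047 windows of genes called lower. The words are a description of these windows and not of binding.

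Among the 14173 autosomal genes tested, 2348 (16.6%) were called higher in BMMCs and 1317 (9.29%) were called lower, together 25.9%. The levels of the 2 groups did not overlap for 2343 of the genes called higher and 1311 of those called lower. Among all autosomal genes tested, 10574 (74.6%) had an adjusted p under 0.01 (edgeR). Called genes were picked for large differences with a small adjusted p, so this lack of overlap adds no support. Its share over all genes was not counted. The shares of 16.6% higher and 9.29% lower are those against which the counts of each gene list are to be read. The lists were chosen with earlier results of these data known, so such a reading is a description and no test. Of the genes called higher, 254 had 0 reads in all 4 GMP libraries. The medians given for gene lists were the same with the genes at 0 in one group set at their bound. The same comparison among the Prss57-/- libraries, which share no sample with this one, called 3620 of 14338 genes (25.2%), and 3212 genes were called in the same direction in both genotypes, which is 87.6% of the wild-type calls and 88.7% of the Prss57-/- calls. Calls of opposite direction numbered 0. Run, sex and culture differ with cell type in this series, so the shared calls cannot separate these from cell type. The Prss57-/- comparison includes Prss57-/- BMMC library 3, which is described with the macrophage markers.

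**Figure D1:**
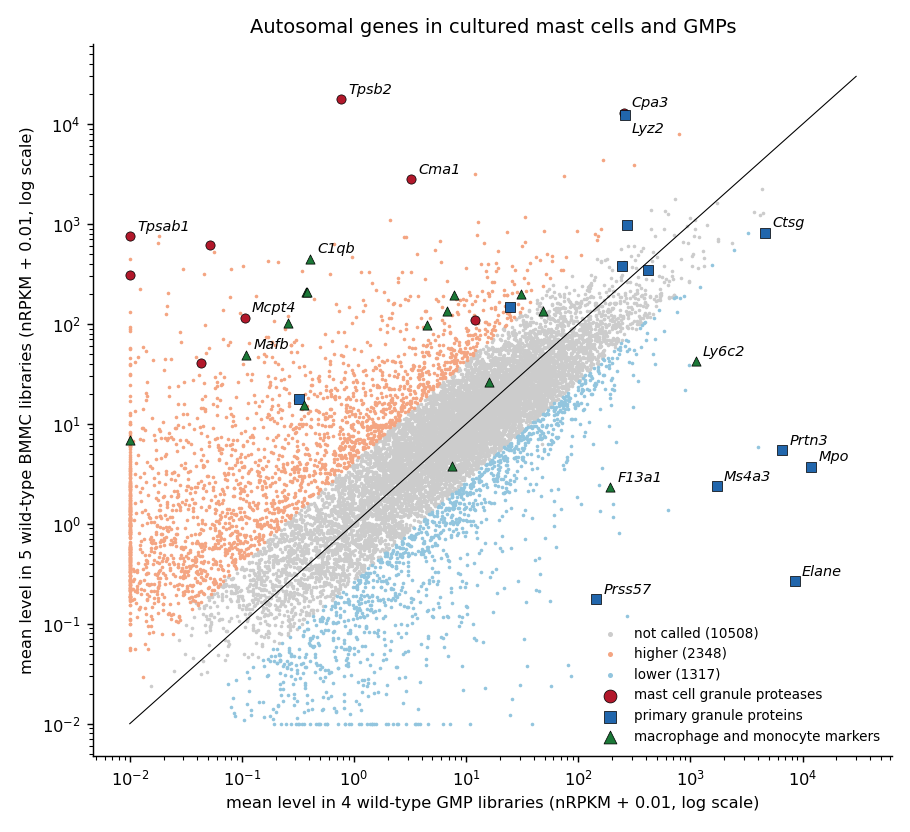
Mean level of each autosomal gene tested in the 4 wild-type GMP libraries (x axis) and in the 5 wild-type BMMC libraries (y axis), both in nRPKM + 0.01 on log scales, with the line of equal levels. Orange points are the 2348 genes called higher in BMMCs and light blue points the 1317 called lower. Most mast cell granule proteases (red circles) lie at the upper left, Mpo, Elane, Prtn3, Ms4a3 and Prss57 of the primary granule list (blue squares) at the lower right, and most macrophage and monocyte markers (green triangles) above the line.

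A few features of the libraries bear on these results. GMP library 1 stood apart from the other 3 GMP libraries. Its level relative to theirs fell with gene length, from a median log2 difference of 0.48 in the shortest of 5 equal groups of genes by exonic length (70 to 1802 bases) to -0.40 in the longest (7050 to 123179 bases). The difference between BMMCs and GMPs itself ran with length, from a median log2 fold change of -0.70 in the shortest group to 0.68 in the longest, or -0.60 and 0.57 without GMP library 1. With the length trend removed, 2318 genes were called higher and 1146 lower. The BMMC libraries also carried markers of macrophages, described with the cell type markers.

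**Figure D2:**
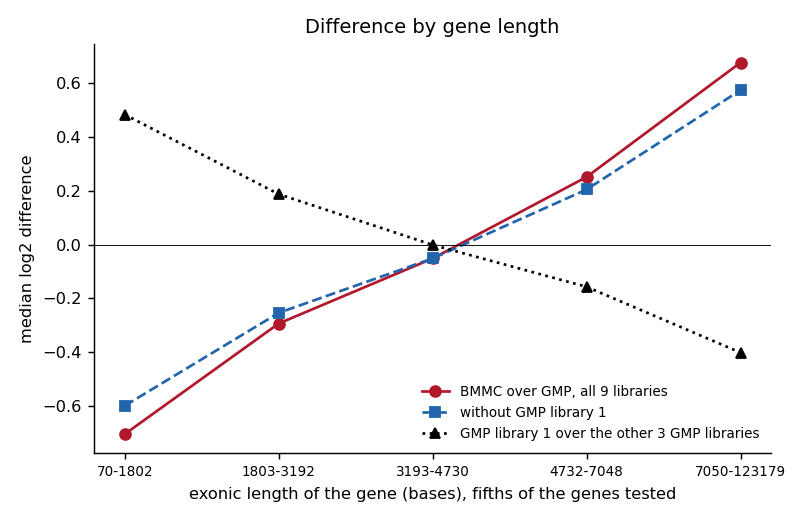
Median log2 difference (y axis) in 5 equal groups of the autosomal genes tested by exonic length in bases (x axis), for BMMC over GMP libraries with all 9 libraries (red circles) and without GMP library 1 (blue squares), and for GMP library 1 over the other 3 GMP libraries (black triangles). The BMMC over GMP medians climbed from -0.70 to 0.68 with length, and those of GMP library 1 over the others declined from 0.48 to -0.40.

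The granule proteases of mast cells were far higher in BMMCs. Of the 11 listed, 9 had enough reads to be tested and all 9 were called higher, with a median log2 fold change of 10.09 against a median of -0.003 over all autosomal genes. Tpsb2 (chromosome 17, 25366305 to 25369098, GRCm38), the tryptase mMCP-6, had the highest mean level among autosomal protein-coding genes called higher, with 13369, 21978, 15771, 22649.9 and 14288 nRPKM in BMMC libraries 1 to 5 and 1.3, 1.42, 0.183 and 0.104 in GMP libraries 1 to 4 (log2 fold change 14.41, SE 0.75, adjusted p = 4.7e-09, edgeR). Every BMMC library lay far above every GMP library, and GMP libraries 1 and 2 held more Tpsb2 than libraries 3 and 4. The Cpa3 level (chromosome 3, 20215620 to 20242181) was 10728, 11892, 11428, 16854 and 14008 nRPKM in BMMCs and 306, 287, 216 and 209 in GMPs (log2 fold change 5.58, SE 0.21, adjusted p = 3.6e-10, edgeR). Cpa3 was thus already well above the other mast cell proteases in GMPs, at 255 nRPKM on average, and stood at 79 in the wild-type CMPs.

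Cma1 (chromosome 14, 55941451 to 55944675), the chymase that connective tissue mast cells store, was at 3127, 3836, 2507, 2147 and 2464 nRPKM in BMMCs and at 5.77, 5.41, 0.956 and 0.781 in GMPs (log2 fold change 9.67, SE 0.70, adjusted p = 8.1e-08, edgeR). As for Tpsb2, the levels did not overlap and the GMP values fell into a higher and a lower pair. Tpsab1, the tryptase mMCP-7, was at 715, 1005, 743, 713 and 600.4 nRPKM in BMMCs, and no read was counted in any GMP library, so that it was at least 57287-fold higher. The same was true of Mcpt2, a chymase of mucosal mast cells, with 241 to 384 nRPKM in BMMCs (at least 19999-fold higher). Tpsg1, a membrane-anchored tryptase (621 ± 69.2 against 0.0421 ± 0.0574 nRPKM, SD, n = 5 and 4), Mcpt4, the connective tissue chymase mMCP-4 (115 ± 20.3 against 0.0962 ± 0.0713), and Mcpt1 (40.3 ± 7.21 against 0.0336 ± 0.0672) were also near absent from GMPs. Gzmb, granzyme B, differed least, from 8.92 to 15.4 nRPKM in GMPs to 86.3 to 132 in BMMCs (log2 fold change 3.11, SE 0.21, adjusted p = 4e-08, edgeR). Tpsb2 and Tpsab1, and the Mcpt genes among themselves, are close paralogs, and reads that map to several copies were not counted by the authors, so the split between copies is uncertain.

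**Figure D3:**
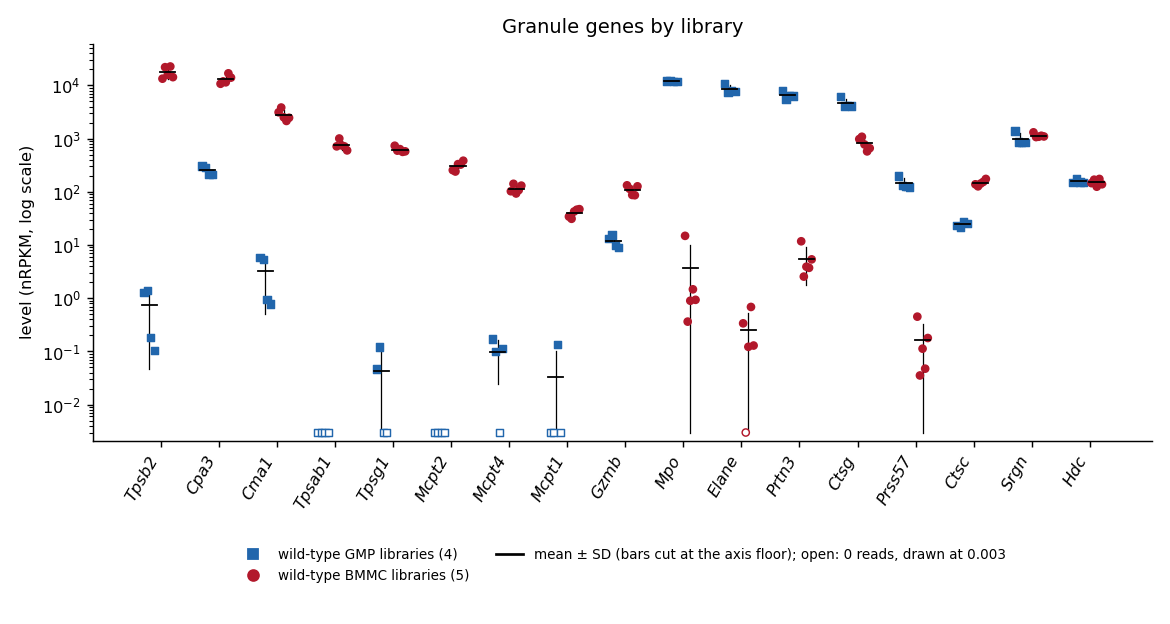
Level in nRPKM (log scale, y axis) of granule genes in each of the 4 wild-type GMP libraries (blue squares) and 5 wild-type BMMC libraries (red circles), with the mean and SD of each group in black. Open symbols are libraries with 0 reads, drawn at 0.003. The tryptases, chymases and Cpa3 on the left are higher in every BMMC library, Mpo to Prss57 are higher in every GMP library, and Srgn and Hdc on the right overlap between the groups.

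Myeloperoxidase and the main serine proteases of the azurophil granules were lower in BMMCs, while several other genes listed with them were not. The list also holds Ms4a3, a membrane protein, and the inhibitors Serpinb1a and Cst7, so its counts do not describe azurophil granule proteins alone. Of the 12 listed primary granule genes, 6 were called lower in BMMCs, 3 higher and 3 neither, with a median log2 fold change of -1.48, and with the length trend removed the counts were 5 lower and 4 higher. Mpo (chromosome 11, 87793581 to 87804413), myeloperoxidase, was the most abundant gene called lower, at 12147, 12309, 11720.4 and 11772 nRPKM in the GMP libraries and 14.9, 0.364, 0.898, 1.47 and 0.935 in the BMMC libraries (log2 fold change -11.75, SE 1.16, adjusted p = 1.3e-06, edgeR). BMMC library 1 held more Mpo than the other 4, and without it the log2 fold change was -13.76. Elane (chromosome 10, 79886247 to 79888215), neutrophil elastase, was at 10876, 7423, 7989 and 7664 nRPKM in GMPs and 0.338, 0, 0.122, 0.686 and 0.129 in BMMCs (log2 fold change -15.10, SE 0.43, adjusted p = 4.5e-11, edgeR, or -15.86 without BMMC library 4), a total of 28 reads in 5 BMMC libraries against 1748886 in 4 GMP libraries. Prtn3, proteinase 3, fell from 6609 ± 1015 to 5.47 ± 3.66 nRPKM (SD, n = 4 and 5; log2 fold change -10.33, SE 0.45, adjusted p = 1.1e-09, edgeR).

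Prss57 (chromosome 10, 79781474 to 79790961), the gene deleted elsewhere in the series, was at 198, 133, 125 and 123 nRPKM in wild-type GMPs and at 0.451, 0.0354, 0.113, 0.0475 and 0.179 in wild-type BMMCs (log2 fold change -9.87, SE 0.40, adjusted p = 6.7e-10, edgeR). The groups did not overlap, and BMMCs retained 52 reads in all, of which library 1 had the highest level (log2 fold change -10.63 without it). All 5 Prss57-/- BMMC libraries were at 0. Ctsg, cathepsin G, differed less than the other azurophil serine proteases. BMMCs still carried 980.0, 1084, 777, 575 and 660.5 nRPKM, below the 6103, 4114, 4129 and 4113 nRPKM of GMPs in every library (log2 fold change -2.60, SE 0.21, adjusted p = 1.8e-07, edgeR, and -1.92 with the length trend removed, short of 4-fold). Ms4a3, a membrane protein of granulocyte-macrophage progenitors, fell from 1711 ± 559 to 2.37 ± 2.1 nRPKM (log2 fold change -9.59, SE 0.52, or -10.27 without BMMC library 1). Ctsc, which encodes the dipeptidase that activates granule serine proteases, was instead higher in BMMCs (127 to 175 against 21.3 to 27.9 nRPKM; log2 fold change 2.49, SE 0.12), and Lyz2, lysozyme, rose from 259.8 ± 49.9 to 12352 ± 2019 nRPKM (log2 fold change 5.48, SE 0.20). Serpinb1a, an inhibitor of elastase-type proteases, Cst7, an inhibitor of cathepsins, and Hexa, a β-hexosaminidase subunit, were not called, with log2 fold changes of 1.76, -0.36 and 0.52, and with the length trend removed that of Serpinb1a was 2.14, past 4-fold, and that of Cst7 0.32.

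Genes within one protease cluster moved in opposite directions. These clusters were singled out after their values had been seen. Between Cma1 and Gzmb on chromosome 14 (55941451 to 56262260), 8 of 15 protein-coding genes were tested, and 6 were called higher in BMMCs and 2 lower. The 2 called lower, Mcpt8 and Ctsg, are neighbours, with 14607 bases between them. Mcpt8, a protease of basophils, was at 662 to 852 nRPKM in GMPs and 132 to 231 in BMMCs (log2 fold change -2.08, SE 0.15), and lies 19852 bases from Mcpt4, which was higher in BMMCs. With the length trend removed, the log2 fold changes of Mcpt8 and Ctsg were -1.40 and -1.92, short of 4-fold, and that of Mcpt8 was -1.97 without BMMC library 3. Besides Mcpt4, the members called higher were Cma1, Mcpt1, Mcpt2, Gzmb and the low-level Gzmc (0.74 against 0.0495 nRPKM).

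On chromosome 17, between Prss34 and Tpsg1 (25298394 to 25374442), 5 of 6 protein-coding genes were tested. Of these, 3 tryptase genes were called higher and Prss34, the basophil protease mMCP-11, was called lower. Prss28 was not called (log2 fold change 0.58). Prss34 was at 1302, 1271, 1163 and 1092 nRPKM in GMPs and 153, 216, 175, 381 and 248 in BMMCs (log2 fold change -2.46, SE 0.22, adjusted p = 6.5e-07, edgeR, and -1.84 with the length trend removed), while Tpsb2, near the other end of this 76.0 kb stretch, rose. The third cluster, between Prss57 and Elane on chromosome 10 (79781474 to 79888215), moved one way. Of its 6 genes tested, 5 were called lower, which besides Prss57, Prtn3 and Elane were Palm, a membrane-associated protein gene (57.6 to 2.19 nRPKM), and Plppr3 (50.8 to 0.704 nRPKM), whose annotation overlaps that of Prtn3 on the other strand. The remaining gene, the splicing regulator Ptbp1, had a log2 fold change of -1.33. The library kit marks strand, but whether the authors' counts used it is not stated. On chromosome 19, Ms4a2 and Ms4a3 lie 5776 bases apart, and the former rose from 34.7 ± 5.31 to 345 ± 46.9 nRPKM while the latter fell from 1711 ± 559 to 2.37 ± 2.1.

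Genes of later neutrophil granules were split. Of 19 tested, 9 were called lower in BMMCs and 5 higher. Camp, cathelicidin, was at 377, 248, 167 and 286 nRPKM in GMPs and 0.125, 0, 0.318, 0 and 0.112 in BMMCs (log2 fold change -11.20, SE 0.41, or -12.09 without BMMC library 3). Ngp (neutrophilic granule protein, 206 ± 44.1 to 1.58 ± 1.07 nRPKM), Fcnb (ficolin B, 30.2 ± 2.63 to 0.0144 ± 0.0322) and Cebpe, the transcription factor of late granules (96.6 ± 7.6 to 1.83 ± 0.558), were lower as well. The alarmin S100a9 fell from 961 ± 311 to 39.2 ± 25.8 nRPKM (log2 fold change -4.71, SE 0.46). The 5 called higher were Mmp8, Mmp9, Ly6g, Chil3 and Itgam, of which Mmp8, collagenase-2, rose from 2.06 ± 0.467 to 115 ± 22.4 nRPKM. Ly6g and Itgam encode targets of the lineage antibodies (Gr-1 and CD11b) by which GMPs were gated, so their difference is no finding. In Prss57-/- BMMC library 3, which is described with the macrophage markers, Mmp8, Chil3 and Itgam were at most 0.25 times the wild-type BMMC mean. Ly6g was not called under voom with quality weights (adjusted p = 0.0101, limma).

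Of the 20 genes tested for the IgE receptor and its signalling chain, 12 were called higher and 0 lower (median log2 fold change 2.64). Fcer1a, the α chain that binds IgE, was at 2720.3, 3138, 2735, 3668 and 2941 nRPKM in BMMCs and 96.3, 62.6, 72.2 and 67.8 in GMPs (log2 fold change 5.25, SE 0.18, adjusted p = 1.4e-10, edgeR). GMPs thus held Fcer1a transcripts in all 4 libraries, and the groups did not overlap. The β chain Ms4a2 differed by 3.22 (SE 0.14) on the log2 scale, and the shared γ chain Fcer1g, which other Fc receptors use too, by 2.39 (SE 0.10). Among the adaptors, Lat rose from 6.7 ± 0.229 to 267 ± 43.8 nRPKM (log2 fold change 5.22, SE 0.15), Lat2 from 32.8 to 287 and Lcp2, which encodes SLP-76, from 17.9 to 141. Prkcb, protein kinase C β, showed the largest fold of the list (log2 fold change 5.82, SE 0.19). The kinases Lyn and Syk, which act first after receptor crosslinking, were higher in BMMCs but not by 4-fold, with log2 fold changes of 1.69 and 1.19, and the levels of Plcg2 overlapped (44.2 ± 7.94 against 42.2 ± 2.38 nRPKM).

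The genes of the amine pathway differed from step to step. Hdc, histidine decarboxylase, which makes histamine, did not separate the groups, at 152, 178, 153 and 149.9 nRPKM in GMPs and 146, 169, 125, 175 and 139 in BMMCs (log2 fold change -0.17, SE 0.11, adjusted p = 0.18, edgeR), where wild-type CMPs averaged 18.2. Tph1, the first enzyme of serotonin synthesis, was at 506, 627, 438, 334 and 351 nRPKM in BMMCs, and no read was counted in any GMP library (at least 140292-fold higher). Slc18a2, the transporter VMAT2 that loads amines into granules, was at 152 to 222 nRPKM in BMMCs and 4.43 to 5.82 in GMPs (log2 fold change 4.97, SE 0.15, adjusted p = 7.6e-11, edgeR). Ddc, which completes serotonin synthesis, rose too but stayed low (3.77 ± 2.71 nRPKM, n = 5). Hnmt and Aoc1, which degrade histamine, were both called lower, Hnmt from 11.5 ± 2.64 to 2.38 ± 0.401 nRPKM (log2 fold change -1.87 with the length trend removed) and Aoc1 from 0.839 ± 0.169 to 0.0287 ± 0.0393. In all, 5 of 10 genes were called higher and 2 lower.

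Srgn, serglycin, the core protein on which heparin is built, was already high in GMPs, at 1396, 864, 854 and 831 nRPKM against 1311, 1069, 1086, 1132 and 1098 in BMMCs (log2 fold change 0.11, SE 0.16, adjusted p = 0.53, edgeR, and -0.06 with scaling by library size alone), and the groups overlapped through GMP library 1. Of 29 genes of glycosaminoglycan synthesis tested, 5 were called higher, 1 lower and 23 neither, shares near or below the 16.6% and 9.29% of all genes. Ndst2, the heparin N-deacetylase and N-sulfotransferase, was at 35.9 to 40.9 nRPKM in BMMCs and 9.77 to 14.3 in GMPs, a log2 fold change of 1.58 (SE 0.11) that missed the 4-fold limit, whereas in the Prss57-/- libraries it was 2.04 and called. The sulfotransferases Hs3st1 (0.64 to 28 nRPKM) and Hs6st1 (8.56 to 61.2) and the chondroitin sulfotransferase Chst15 (5.55 to 39.7) were called higher, and Chst13 was the member called lower (33.7 to 0.694).

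Genes that make leukotriene C4 and prostaglandin D2 were called higher in BMMCs. Alox5, 5-lipoxygenase, rose from 23.3 ± 2.9 to 828 ± 75.7 nRPKM (log2 fold change 5.06, SE 0.13, adjusted p = 2.9e-11, edgeR), Ltc4s, leukotriene C4 synthase, from 1.28 ± 0.556 to 30.7 ± 6.76, and Hpgds, the haematopoietic prostaglandin D synthase, from 0.0501 ± 0.0261 to 26.2 ± 7.29. Lta4h, which makes leukotriene B4, was instead called lower, from 481 ± 17.1 to 70.4 ± 4.51 nRPKM (log2 fold change -2.86, SE 0.08). The counts were 6 higher and 2 lower of 14 tested, against 16.6% and 9.29% of all genes.

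Receptors for growth factors and cytokines included some of the clearest differences. Kit, the stem cell factor receptor and part of the GMP gate, was at 447, 734, 464, 490.5 and 392 nRPKM in BMMCs and 40.7, 59.4, 54.1 and 55.5 in GMPs (log2 fold change 3.18, SE 0.20, adjusted p = 2.1e-08, edgeR). Il1rl1, the IL-33 receptor ST2, rose from 2.91 ± 0.772 to 746 ± 102 nRPKM (log2 fold change 7.91, SE 0.23, adjusted p = 5.5e-11, edgeR). Csf2rb2, the IL-3-specific β chain in mice, rose from 2.79 ± 0.611 to 734 ± 93.2 nRPKM and its paralog Csf2rb, the shared β chain, from 19.1 ± 3.4 to 532 ± 57.3, while Il3ra, the α chain, had a log2 fold change of 0.43. Il4ra, Il9r, Il10ra and both TGF-β receptor genes, Tgfbr1 and Tgfbr2, were called higher too. Flt3 and Csf3r, receptors of early and granulocytic progenitors, were called lower, from 5.73 ± 0.998 to 0.136 ± 0.0332 and from 32.1 ± 4.35 to 4.37 ± 0.42 nRPKM, as was Epor at a low level, which was not called in the Prss57-/- libraries (log2 fold change -1.06). In all, 12 of 27 were called higher and 4 lower.

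Of the genes whose products define the sorting of progenitors, Cd34 (180.2 to 262 nRPKM in BMMCs, 244 to 285 in GMPs) and Fcgr3, CD16 (310.3 to 428 and 266 to 382), overlapped between the groups. Ly6a, which encodes Sca-1 and was gated against in the sort of GMPs, was at 204, 342, 212, 191 and 155 nRPKM in BMMCs and 1.97, 1.17, 1.42 and 1.73 in GMPs, and Cd27 went the other way, from 56.1 ± 5.05 to 0.161 ± 0.11 nRPKM. By the study's methods the GMP gate took lineage-negative cells with KIT, CD34 and high CD16/32 and without Sca-1, so a difference in a gene of the gate is no finding. Its lineage antibodies included those against CD11b, Gr-1 and IL-7Rα, so this covers Itgam, Ly6g and Il7r too. The methods state no sort of the BMMCs. By flow cytometry for KIT and FcεRI, the study reports that nearly all cells of its differentiated GMP cultures were mast cells. It does not say whether the cultures of these libraries were among those measured.

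Of 26 surface receptors of mast and myeloid cells, 18 were called higher and 1 was called lower, the lectin Clec12a (306 ± 94.6 to 14.8 ± 1.8 nRPKM). Mrgprb2, the receptor for basic secretagogues, was low in BMMCs at 1.28 to 4.57 nRPKM and had 1 read in all GMP libraries. Adora3, the adenosine A3 receptor (0.834 ± 0.151 to 60.6 ± 11.5 nRPKM), Cd200r1 (3.73 ± 0.567 to 193 ± 21.6), Cd300lf (0.182 ± 0.171 to 106 ± 12.9) and the early activation antigen Cd69 (13.9 ± 0.773 to 214 ± 45.5) were examples at higher levels. Rab27b and Sytl2, which tether granules before exocytosis, rose from 0.296 to 69.6 and from 0.029 to 46.9 nRPKM, and Rab27a, the close relative of the former, fell from 73.7 to 14.4. Of the 24 exocytosis genes tested, 18 were not called, among them Vamp8, Stxbp2 and Unc13d with log2 fold changes of -0.44, 0.33 and 1.14.

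Among transcription factors, Gata2, which mast cells require, was at 427, 479, 379.8, 401 and 339.8 nRPKM in BMMCs and 25.4, 46.4, 39.8 and 35.7 in GMPs (log2 fold change 3.37, SE 0.18, adjusted p = 5.5e-09, edgeR), and Mitf, the factor of KIT-dependent mast cell genes, at 24.7, 29.9, 27.7, 30.2 and 26.5 and 1.11, 0.9, 0.861 and 1.22 (log2 fold change 4.67, SE 0.14, adjusted p = 5.5e-11, edgeR). Bhlhe40 rose from 1.15 ± 0.139 to 333 ± 45.8 nRPKM (log2 fold change 8.08, SE 0.17) and Tal1 from 13 ± 1.49 to 87.2 ± 7.22 (log2 fold change 2.66, SE 0.11). Lmo2, which works with Tal1 in a complex, fell from 138 ± 5.64 to 22.4 ± 1.96 nRPKM (log2 fold change -2.72, SE 0.09). Of 18 mast cell associated factors, 6 were called higher, 1 lower and 11 neither, against 16.6% higher and 9.29% lower over all genes.

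Of 29 factors listed for GMPs, 5 were called lower (9.29% over all genes), namely Myb (186 ± 16.3 to 9.43 ± 4.69 nRPKM), Irf8, the factor of the monocyte and dendritic lineages (132 ± 12.9 to 19.8 ± 3.39), Cebpe, Hoxa7 and Hoxa9. Cebpa, which sets up the granulocyte and monocyte fate, was lower by less than 4-fold (131, 173, 192 and 181 nRPKM in GMPs and 48.4, 39, 51.5, 60.1 and 47.2 in BMMCs; log2 fold change -1.88, SE 0.14, adjusted p = 8.8e-08, edgeR, or -2.07 with scaling by library size alone), and Spi1, PU.1, overlapped between groups (131 to 157 and 107 to 135 nRPKM). The 9 called higher were Klf2, Klf4, Klf6, Id2, Egr1, Irf4, Irf5, Meis1 and Mycn (16.6% over all genes), and this count was 7 without GMP library 1 and 7 in the Prss57-/- libraries. The calls of Klf4 and Meis1 lay close to the limit and were lost under several settings, at log2 fold changes of 1.87 and 1.99 without GMP library 1 and 1.88 and 1.90 with scaling by library size alone. Klf4 was also lost without GMP library 2, at 1.96, and in the Prss57-/- libraries (adjusted p = 0.0253, edgeR), and Meis1 was at 1.46 with the length trend removed. Klf2 rose from 0.684 ± 0.322 to 159.9 ± 18.4 nRPKM.

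Cytokine and chemokine genes were higher in BMMCs almost throughout the list, with 17 of 19 tested called higher and 0 lower (median log2 fold change 6.80). Lif, leukaemia inhibitory factor, was at 174, 232, 209, 272 and 241 nRPKM in BMMCs and had 2 reads in the 4 GMP libraries together, a ratio of 90834 (25145 to 750044) with the 95% Poisson interval in parentheses. Ccl2, a monocyte attractant, rose from 0.0355 ± 0.0711 to 317 ± 82.8 nRPKM, Ccl3 from 1.83 ± 0.651 to 209 ± 37.5 and Osm, oncostatin M, from 2.44 ± 0.463 to 289.9 ± 41.2. Tnf was at 33.3 to 109 nRPKM and Il6 at 47.2 to 54.1 in BMMCs, against 0.181 to 0.383 and 0.449 to 0.892 in GMPs. The type 2 cytokine genes were lower in level, Il4 at 10.9 to 18.6 and Il13 at 0.704 to 2.84 nRPKM in BMMCs, and Il5 had 0 reads in both groups. Ccl6, a chemokine gene outside the list, was at 2488 to 3898 nRPKM against 8.95 to 16.3 (log2 fold change 7.95, SE 0.26). Cxcl3 was at 75.9 to 188 nRPKM in BMMCs with no read in GMPs (at least 8994-fold higher).

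**Figure D4:**
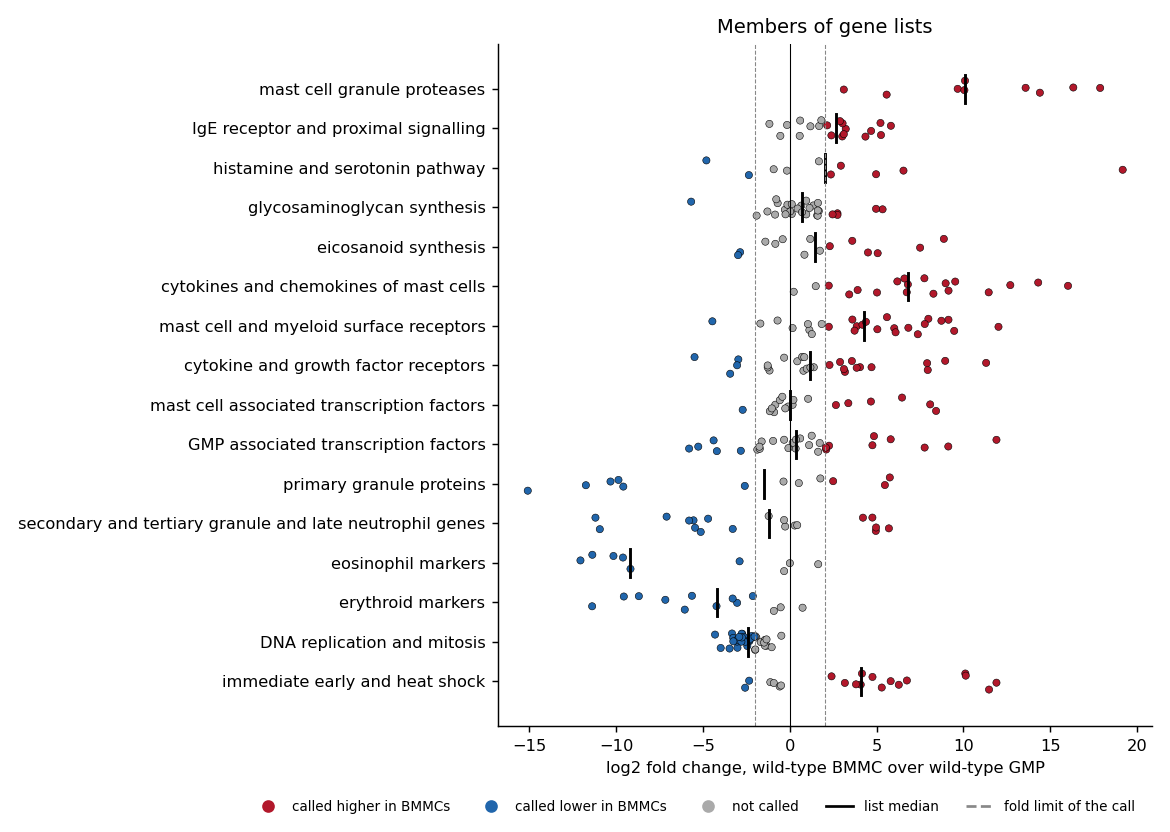
Log2 fold change of BMMCs over GMPs (x axis) for the tested autosomal members of 16 gene lists (y axis), one point per gene, with the list median as a black bar and the 4-fold limit as dashed lines. Red points were called higher in BMMCs, blue points lower and grey points neither. The mast cell protease median is 10.09 and the cytokine median 6.80, while the eosinophil marker median is -9.18 and the DNA replication and mitosis median -2.39.

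Many transcripts typical of macrophages were present in all 5 BMMC libraries, far above their GMP levels. Of the 16 macrophage and monocyte markers tested, 11 were called higher in BMMCs and 2 lower. C1qb, a complement component that tissue macrophages make, was at 454, 394, 504, 387 and 517 nRPKM in BMMCs and 0.449, 0.622, 0.109 and 0.394 in GMPs (log2 fold change 10.04, SE 0.32, adjusted p = 9.5e-11, edgeR), Mrc1, the mannose receptor, at 102 ± 16.2 and 0.25 ± 0.0686, and Adgre1, which encodes F4/80, at 73.6 to 132 and 3.8 to 5.03. Mmp12, the macrophage metalloelastase, was at 616, 544, 889, 743 and 711 nRPKM in BMMCs with no read in any GMP library (at least 187186-fold higher). Mertk, a receptor for dying cells (26.3 to 33.6 nRPKM, at least 8867-fold higher), and Marco (6.87 ± 4.01, at least 897-fold higher) were likewise at 0 reads in all GMP libraries. Clec4n, the lectin dectin-2, was at 457 to 788 nRPKM in BMMCs and had 2 reads in all GMP libraries, a ratio of 79939 (22129.5 to 660086). The summed level of the 16 markers was 1646 to 2099.9 nRPKM in BMMCs and 1235 to 1557 in GMPs, where Ly6c2, a marker of monocytes and their progenitors, made up most of it (921 to 1211 nRPKM in GMPs, 22.3 to 83.3 in BMMCs). In bulk RNA, a smaller number of cells of a type and less RNA per cell cannot be told apart.

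One library outside the comparison, Prss57-/- BMMC library 3, carried little of this signal. Its summed level of the 16 macrophage and monocyte markers was 298 nRPKM, against 2114 to 2585 in the other 4 Prss57-/- BMMC libraries. C1qb was at 36.4 nRPKM there, 0.0806 times the wild-type BMMC mean, Mrc1 at 11, Mmp12 at 53.6 and Lyz2 at 978, 0.0792 times the wild-type mean. These mast cell genes were higher in it, Cpa3 at 29822 nRPKM (2.3 times the wild-type mean), Cma1 at 14489.7 (5.15 times), Fcer1a at 6786 (2.23 times), Kit at 1002 (1.98 times) and Gata2 at 777 (1.92 times). Mast cell lists did not all go this way. Median ratios to the wild-type mean were 2.03 for granule proteases, 1.7 for transcription factors and 1.35 for the IgE receptor list. They were 0.97 for cytokines and chemokines, 0.56 for cytokine receptors and 0.37 for the histamine and serotonin pathway. Of the 2348 genes called higher in wild-type BMMCs, 639 (27.2%) were at most 0.25 times the wild-type BMMC mean in that library, against 2 to 25 in each of the other 4 Prss57-/- libraries. The same share over all autosomal genes was not counted. Over autosomal genes tested with a wild-type BMMC mean above 1 nRPKM, the median ratio was 0.982. Genes called higher were chosen for a high wild-type BMMC level, which favours low ratios. In that single library, 1808 of them (77%) still stood at least 4-fold above the wild-type GMP mean, a comparison of 1 library with no test. It differs in genotype from the libraries compared, and the part of other cells in the wild-type levels was not tested.

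**Figure D5:**
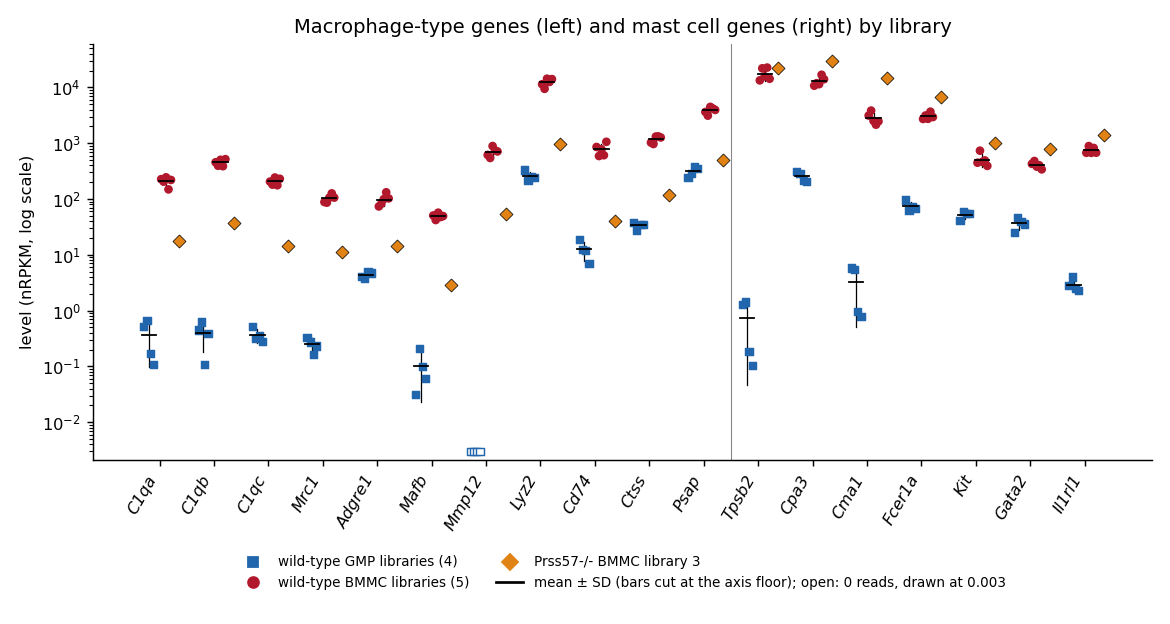
Level in nRPKM (log scale, y axis) of macrophage-type genes (left of the line) and mast cell genes (right) in each wild-type GMP library (blue squares), each wild-type BMMC library (red circles) and Prss57-/- BMMC library 3 (orange diamonds), with the mean and SD of the wild-type groups in black and libraries with 0 reads drawn open at 0.003. The orange diamonds lie below all wild-type BMMC libraries for every gene on the left, and at or above most of them for the mast cell genes on the right.

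Several of the most abundant genes called higher in wild-type BMMCs were low in Prss57-/- BMMC library 3. Lyz2, below only Tpsb2 and Cpa3 among the protein-coding genes called higher when ordered by wild-type BMMC level, was at 0.0792 times that level there. Ctss, cathepsin S, was at 967 to 1324 nRPKM in wild-type BMMCs and 27.3 to 37.8 in GMPs, and at 0.0986 times the BMMC mean in that library. The ratio was 0.132 for Psap, prosaposin (3871 nRPKM in wild-type BMMCs), 0.115 for Ccl6, 0.166 for Spp1, osteopontin (1092), 0.235 for Lgals3, galectin-3 (1050.1), 0.356 for Arg1, arginase 1 (762), 0.53 for Ctsd, cathepsin D (4352), and 0.373 for Fth1, ferritin heavy chain (7962). Reads of Fth1 can be shared with processed pseudogenes, and those of Lyz2 with its paralog Lyz1. The ratio was 1.94 for Lif, 1.95 for Tph1, 1.18 for Cobl, 0.565 for Fblim1, 0.172 for Ccn3 and 0.0551 for Cxcl3. Tpsab1 was an exception among mast cell proteases, at 13.3 nRPKM in that library and 600.4 to 1005 in the wild-type BMMCs, whereas its neighbours Tpsb2 and Tpsg1 had ratios of 1.24 and 2.03.

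Some genes of antigen presentation were also higher in BMMCs and low in Prss57-/- BMMC library 3. Cd74, the invariant chain, was at 855, 589, 778, 609 and 1059 nRPKM in wild-type BMMCs and 18.7, 12.3, 11.8 and 6.98 in GMPs (log2 fold change 5.87, SE 0.32), and at 0.052 times the BMMC mean in Prss57-/- BMMC library 3. H2-Aa and H2-Eb1 rose from 9.64 ± 3.45 to 153 ± 41 and from 6.32 ± 2.03 to 86.6 ± 27.8 nRPKM, with ratios of 0.0493 and 0.041 in that library. Of 11 dendritic cell markers tested, 7 were called higher and 1, Flt3, lower. All 7 of the former were at most 0.25 times the wild-type BMMC mean in that library, against 27.2% of all genes called higher. The defining dendritic cell genes Siglech and Xcr1 were at or near 0 in both groups.

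Of 28 lysosomal genes tested, 8 were called higher and 2 lower, against 16.6% and 9.29% of all genes. Of those called higher, 4 were at most 0.25 times the wild-type BMMC mean in Prss57-/- BMMC library 3, against 27.2% of all genes called higher. These 4 were Ctsb, Ctsl, Ctss and Psap. Arsb and Galns, both sulfatases, were called lower (85.8 to 4.96 and 38 to 9.33 nRPKM). With the length trend removed Galns was at -1.80. Of 24 integrin and adhesion genes, 11 were called higher, and 8 were in the Prss57-/- libraries. Of the 11, 7 were at most 0.25 times the wild-type BMMC mean in Prss57-/- BMMC library 3. Among them, Itgam, part of the GMP gate, Itgax and Itgb2 had ratios of 0.0877, 0.0523 and 0.144. Itgb7 (15.8 to 206 nRPKM, ratio 1.6), used by mast cell progenitors to enter the gut, and Itga2b (27 to 344, ratio 2.67) stayed high in that library.

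GMPs in turn carried transcripts of other granulocytes. The eosinophil gene Prg2, major basic protein, was at 1982, 1361, 1844 and 2197 nRPKM in GMPs and 3.74, 2.88, 1.39, 3.38 and 1.32 in BMMCs (log2 fold change -9.61, SE 0.32, adjusted p = 1.4e-10, edgeR), and 15 on average in wild-type CMPs. Epx, eosinophil peroxidase, was at 51.1, 64.1, 108 and 119 nRPKM in GMPs and 0 to 0.0353 in BMMCs, and Prg3 at 80.2 ± 18.5 and 0.029 ± 0.0427. GMP libraries 3 and 4 held more Epx than libraries 1 and 2. In all, 6 of 9 eosinophil markers were called lower and 0 higher, and their summed level was 1518 to 2499 nRPKM in GMPs against 10 to 20.8 in BMMCs. Of the 5 basophil markers, Mcpt8 and Prss34 were called lower and Cd200r3, Fcer1a and Ms4a2, of which mast cells also express at least the last pair, higher.

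Of 13 erythroid markers tested, 10 were called lower in BMMCs and 0 higher. Of 10 lymphoid markers, 6 were called lower and 2 higher, the latter being Il7r (0.122 ± 0.0545 to 16.7 ± 2.37 nRPKM), a cytokine receptor gene, and Blnk (0.156 ± 0.0589 to 11.6 ± 1.19), a signalling adaptor gene. Antibodies against IL-7Rα were part of the lineage stain of GMPs, so the Il7r difference is no finding. Car1, carbonic anhydrase 1, fell from 25.4 ± 9.4 to 0.00763 ± 0.0171 nRPKM. Igkc, the immunoglobulin κ constant region, was at 306, 256, 233 and 128 nRPKM in GMPs and 0.0893, 0, 0.226, 3.64 and 0.0797 in BMMCs (log2 fold change -8.24, or -11.10 without BMMC library 4). The defining B cell gene Pax5 was near 0 in GMPs (0.00117 nRPKM), and the gate excluded cells with B220. Which cells the Igkc reads came from was not tested. Among the megakaryocyte genes, Pf4, platelet factor 4, was higher in BMMCs (497 to 757 against 14.9 to 46.6 nRPKM, with 1054 in CMPs) with a ratio of 0.12 in Prss57-/- BMMC library 3. Gp9, a platelet glycoprotein, was called lower.

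Genes of DNA replication and mitosis were lower in BMMCs. Of 34 tested, 22 were called lower and 0 higher (median log2 fold change -2.39, against 9.29% called lower over all genes). Tk1, thymidine kinase, was at 88.8, 66.5, 65.5 and 68.5 nRPKM in GMPs and 7.65, 3.04, 4.35, 1.81 and 2.62 in BMMCs (log2 fold change -4.31, SE 0.33, adjusted p = 1.4e-07, edgeR), and Aurkb, a mitotic kinase, at 111 ± 4.84 and 7.49 ± 4.49. The helicase genes Mcm5, Mcm6 and Mcm7 were called, whereas Mcm2, Mcm3 and Mcm4 had log2 fold changes of -1.93, -1.34 and -1.68. Mcm2 lay close to the limit and passed it under 7 alternatives, such as the Prss57-/- libraries (-2.23), the length trend removed (-2.24) and without BMMC library 1 (-2.12). Mki67 and Top2a, standard markers of cycling cells, overlapped between the groups. Mki67 was at 5.95, 16.8, 16.2 and 16.7 nRPKM in GMPs and 17.1, 9.66, 11.6, 4.56 and 9.78 in BMMCs (log2 fold change -0.49, SE 0.35, adjusted p = 0.21, edgeR), and GMP library 1, which was low for long genes, held the lowest value of its group. Reads on histone genes with Hist symbols made up small shares, larger in BMMCs (0.0281% to 0.0348%) than in GMPs (0.00676% to 0.0139%). This set was chosen by symbol alone and not limited to histones made during DNA replication, so the shares are no measure of replication.

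Of 18 genes of cell cycle entry and its inhibitors, 6 were called higher and 0 lower. Cdkn2a and Cdkn2b, which encode p16, p19ARF and p15, had 0 reads in all GMP libraries and were at 34.9, 45, 46.2, 95.9 and 63.5 and 12.2, 13, 16.6, 31.5 and 21.7 nRPKM in BMMCs (at least 4454-fold and at least 1771-fold higher). Cdkn1a, p21, rose from 5.9 ± 0.802 to 419 ± 26.2 nRPKM (log2 fold change 6.06, SE 0.13, adjusted p = 1.3e-11, edgeR), Ccnd2, cyclin D2, from 21.6 ± 2.65 to 219 ± 43.4, and Mdm2, a p53 target and inhibitor, from 12.1 ± 1.51 to 71.9 ± 2.39. Cdkn2a and Cdkn2b were at 0.257 and 0.218 times the wild-type mean in Prss57-/- BMMC library 3, and Cdkn1a at 1.4 times. Myc, which drives growth, was not called (151 to 47.7 nRPKM, log2 fold change -1.75), nor was Cdk4 (log2 fold change -1.92, or -2.10 with scaling by library size alone, which is past the limit).

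Most immediate early genes were higher in BMMCs. Of 20 immediate early and heat shock genes tested, 14 were called higher and 2 lower. Egr1 was at 353, 499, 359, 386 and 321 nRPKM in BMMCs and 0.109, 0.136, 0.0484 and 0.0749 in GMPs (log2 fold change 11.90, SE 0.29, adjusted p = 2.5e-11, edgeR). Fos rose from 2.58 ± 0.329 to 154 ± 47.3 nRPKM, Junb from 19.1 ± 1.83 to 363 ± 44.1, and Ier3 from 5.88 ± 0.842 to 673 ± 99.4. The heat shock genes did not share this, with Hspa1b called lower (0.885 to 0.158 nRPKM) but not in the Prss57-/- libraries (log2 fold change -1.34, adjusted p = 0.0464, edgeR), and Hspa8, Hsph1 and Dnajb1 at log2 fold changes of -0.92, -0.58 and -0.51.

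Among BCL2 family genes, 11 of 16 were called higher and 0 lower, and both directions of function were represented. Bcl2 (4.55 ± 0.887 to 26.3 ± 1.91 nRPKM, log2 fold change 2.44, or 1.92 with the length trend removed) and Bcl2l1, which encodes BCL-XL (5.7 ± 0.667 to 36.8 ± 2.17), protect from cell death, and Bbc3, which encodes PUMA (2.29 ± 0.233 to 41.7 ± 3.38), and Pmaip1, which encodes NOXA (0.616 ± 0.0822 to 19 ± 2.36), promote it. The Bcl2a1 genes are near-identical copies, and their split is uncertain. Glutathione S-transferase genes were lower where called, 4 of 14, of which Gstm1 fell from 312 ± 29.6 to 54.5 ± 4.84 nRPKM. Of 22 cholesterol genes, 19 were not called, and the exporters Abca1 (0.174 to 14 nRPKM) and Abcg1 (6.21 to 49.1) were the 2 called higher. The phagocyte oxidase genes Cyba, Ncf1 and Ncf4 were below 4-fold (log2 fold changes 0.91, 0.69 and 0.25), while Gpx1, glutathione peroxidase 1, fell from 3276 ± 794 to 810.3 ± 48 nRPKM (log2 fold change -2.11, SE 0.15, but -1.93 without GMP library 1 and -1.55 with the length trend removed).

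The remaining genes named for the size of their difference or their level included several of other functions. Cobl, an actin nucleator, was at 80.2, 117, 82.8, 86.8 and 77.3 nRPKM in BMMCs with no read in GMPs (at least 33826-fold higher), Ccn3, a matricellular protein, at 61.9 to 123 (at least 16084-fold higher), and Fblim1, a filamin-binding adhesion protein, at 27.2 to 36.4 (at least 6995-fold higher). Arg1 had 3 reads in the 4 GMP libraries together and was at 568 to 1101 nRPKM in BMMCs. Adgrl4, an adhesion receptor, was at 28.8, 24.4, 22.2 and 22.2 nRPKM in GMPs with 1 read in all BMMC libraries, and Cldn15, a claudin, at 58, 51.5, 61.2 and 59.1 with 3 reads, ratios of 11868 (2130.1 to 468770.0) and 4318 (1478 to 20939.5). Plac8, a cysteine-rich protein of progenitors, was at 6527, 3004, 3227 and 3391 nRPKM in GMPs, GMP library 1 being highest, and 11.9, 2.26, 5.06, 4.61 and 5.16 in BMMCs (log2 fold change -9.54, SE 0.50, or -9.20 without GMP library 1). Calr, the chaperone calreticulin, was still at 515 to 609 nRPKM in BMMCs but below the 2249.8 to 2550.1 of GMPs (log2 fold change -2.25, SE 0.10, or -1.97 with the length trend removed).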

How the data were processed

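Total RNA libraries of 26 samples were sequenced by the authors. Per the study's methods and the submitters' processing notes, reads were aligned to GRCm38 with GSNAP, and uniquely aligned reads within exons were deposited as counts per gene. The deposited RPKM values (nRPKM) were normalized by the authors to gene length and library size factor. The gene model release and the use of strand in counting are not given in the sources used here.

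The counts of the 5 wild-type BMMC and 4 wild-type GMP libraries were tested in edgeR 4.0.16 (R 4.3.3) with filterByExpr, TMM factors and the robust quasi-likelihood test, without covariates. Of 52636 genes listed, 14754 were tested and 14173 of these were autosomal. Calls needed a fold of at least 4 and an adjusted p (Benjamini-Hochberg) below 0.01. The study's own tool, limma voom (limma 3.58.1), and DESeq2 1.42.0 were alternatives, with other scalings, filters, fold limits and left-out libraries. Exonic lengths and gene positions came from GENCODE M21, and promoter windows from RefSeq (GRCm38.p6). The fit was tested on simulated data for BMMCs against GMPs over 14658 genes, where 50 of 50 genes changed by 2.5 on the log2 scale were called and 0 of 50 changed by 1. The latter change lies below the 4-fold limit, so it could not be called. The simulation used the same dispersion for all genes, changed no low-count genes and held no length trend, unlike these data.

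The members and the 31 gene lists were chosen with earlier results of these data known. Named genes were, in each direction, the 12 protein-coding autosomal genes with the largest fold (mean of at least 50 CPM in the higher group, no overlap) and the 12 with the highest nRPKM, up to 4 called members of each list in each direction, the members that define each list, and Prss57. Certain genes are not reported here, and other list members outside these rules were counted without being named. Single genes named with a limit or as a contrast were chosen after their values were seen. All pairs of replicates differed by more than the sampling noise. Tables were made with Python 3.11.15 and pandas 2.3.3, and figures with matplotlib 3.10.9.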

Additional observations from a re-analysis of the deposited data

Results flagged for a closer look

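For the genes named in the text, one library of a group stood far from the others by Dixon's ratio in 41 of 379 sets of values. One set is one gene in one group. The limit flags about 5% of sets by chance only where values are normal and sets independent. Sets that share a library are not independent, and a set with reads in 1 library alone, such as Ccl2 in GMPs, has a ratio of 1 by construction. The count is therefore no test. Levels are in nRPKM, with the range of the other libraries of the group in parentheses.

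GMP library 1, which differed from the others along gene length, accounted for 19 of these. It was highest for Cd300lf at 0.438 (0.0887 to 0.104), Cdk4 at 460.2 (321 to 343), Ctsg at 6103 (4113 to 4129), Elane at 10876 (7423 to 7989), Mdm2 at 14.3 (11.2 to 11.7), Ms4a3 at 2546 (1359.5 to 1471), Plac8 at 6527 (3004 to 3391), Prss57 at 198 (123 to 133), Srgn at 1396 (831 to 864), Tk1 at 88.8 (65.5 to 68.5) and Vamp8 at 149 (105 to 109). It was lowest for Lyn at 14.9 (17.6 to 18.1), Meis1 at 1.55 (2.15 to 2.27), Mki67 at 5.95 (16.2 to 16.8), Mycn at 0.0379 (0.0998 to 0.106), Ncf1 at 97.1 (119.9 to 124), Plcg2 at 32.4 (47.4 to 49.5), Syk at 18.4 (27.3 to 28) and Top2a at 49.7 (81.8 to 86).

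BMMC library 1 was highest for Mcm3 at 90.9 (68.4 to 74.6), Mpo at 14.9 (0.364 to 1.47), Ms4a3 at 6.00 (0.8 to 2.22) and Srgn at 1311 (1069 to 1132), the genes Mpo and Ms4a3 being markers of GMPs. BMMC library 2 accounted for 10 values. It was highest for Cd69 at 295 (183 to 202), Cobl at 117 (77.3 to 86.8), Il9r at 28.1 (12.7 to 17), Kit at 734 (392 to 490.5), Lcp2 at 175 (128 to 137), Prkcb at 242 (162 to 184), Rab27b at 89.7 (61.5 to 67.8), Serpinb1a at 1276 (864 to 939.5) and Sytl2 at 61.7 (40.9 to 45.1), and lowest for Irf4 at 4.77 (8.31 to 9.54).

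The remaining libraries flagged gave 2 or 3 values each. BMMC library 4 was highest for Igkc at 3.64 (0 to 0.226) and Rab27a at 17.5 (13.3 to 14.3). BMMC library 4 was lowest for Stxbp2 at 63.3 (68.8 to 71). GMP library 2 was highest for Ccl2 at 0.142 (0 to 0), Chst15 at 6.63 (5.11 to 5.35) and Hdc at 178 (149.9 to 153). GMP library 3 was highest for Il3ra at 37.5 (33.3 to 33.5) and Mcpt1 at 0.134 (0 to 0).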

How the results depend on the processing

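The 2348 genes called higher and 1317 called lower in BMMCs stayed within 1.5 times of these counts under limma voom, voom with quality weights, DESeq2 (3150 and 1516), other scalings, no filter on low counts (3020 and 1656), all 26 libraries in 1 fit and the Prss57-/- libraries. With any single library left out, 2329 to 2466 genes were higher and 1260 to 1439 lower. A fold of at least 2 gave 3894 and 3454, and a fold of at least 8 gave 619 lower. At least 10 counts in every library left 1217 and 702, with fewer genes tested (11613), and also cut list counts, such as mast cell proteases from 9 to 3, cytokines from 17 to 7, macrophage markers from 11 to 7 and erythroid markers from 10 to 0. Testing against a fold of 4 with glmTreat called 745 lower, and 13 of the DNA replication and mitosis genes in place of 22. Scaling by library size alone moved the median of all genes by -0.19 on the log2 scale. It turned the log2 fold changes of Fcgr3 (-0.0011) and Srgn (-0.064) below 0, and Srgn was at -0.080 in the Prss57-/- libraries without BMMC library 3. Removing the length trend, an alternative chosen after seeing the data like the one that leaves out that library, turned Cst7 (0.32), and the cause was not tested. Of the 200 named genes, 178 kept their direction and their side of the limits under all alternatives run. Beside those given with the genes, the folds of further genes moved by over 1.5 times with 1 library left out. Most of these genes had few or no reads left in one group, where a fitted fold is no bound. Their log2 fold changes follow. Without GMP library 1 they were Cd300lf at 9.99, Ddc at 7.16, Gzmc at 4.86 and Il9r at 9.72, without GMP library 2 Ccl2 at 15.99, Arg1 at 18.12 and Tpsg1 at 15.03, without GMP library 3 Mcpt1 at 13.41, Clec4n at 17.67 and Mrgprb2 at 10.65, and without GMP library 4 Lif at 17.86. Without BMMC library 1 they were Car1 at -13.25 and Fcnb at -13.59, without BMMC library 4 Adgrl4 at -14.91 and Prg3 at -12.43, without BMMC library 5 Cldn15 at -12.93, and Aoc1 was at -5.40 without BMMC library 3 and -5.43 without BMMC library 5. With the replicate number as a block, 2355 and 1317 genes were called. The deviations of libraries with the same number correlated at 0.0475, 0.0308, 0.0105 and 0.0197, which shows no pairing but cannot exclude one. BMMC libraries held fewer reads than GMP libraries, so the floor below which a gene could not be seen was higher in BMMCs.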
